A study of Danio rerio with 24 samples.

Results

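The genes described here build or direct cartilage and early bone, collagens left out. They were followed in RNA sequencing of whole zebrafish embryos collected at 48 hours post fertilization (hpf). The members were 40 gene symbols listed for cartilage matrix, skeletal transcription factors, bone mineral, growth plate signals and proteoglycan linker enzymes, each taken where the authors' main raw count table held it. The table held 39 of them among its 26347 genes, and hapln1b was not analysed here. A filter on low counts kept 36 of the 39 for testing, among 20907 genes tested in all. The 3 members under the filter were runx2a (an osteoblast transcription factor, 0 to 8 counts per library), bglap (osteocalcin, 0 to 10 counts) and pth1ra (the receptor for parathyroid hormone and its relative PTHrP, 1 to 8 counts), and they are in no test.

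The 4 groups crossed a line with a treatment, with 4 numbered libraries each. The WT control and WT TCDD groups came from embryos labelled WT. The slincRosu3 control and slincRosu3 TCDD groups came from a line with a CRISPR-Cas9 mutation in slincR, a long noncoding RNA named after sox9b. TCDD (2,3,7,8-tetrachlorodibenzo-p-dioxin, a strong activator of the aryl hydrocarbon receptor) was given at 1 ng/mL from 6 to 48 hpf, and the control groups were collected at the same age. The parent strain of WT, the number of embryos per library and whether libraries came from separate clutches are not stated by the labels, so p-values measure only the spread between these libraries. The comparisons ask whether transcripts of these genes in whole embryos differed with TCDD, between the lines, or with both together. In every line comparison the mutation cannot be told apart from parent strain or clutch.

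In the zebrafish head, neural crest cells fill the pharyngeal arches and form the jaw cartilages before bone appears. Chondrocytes switch on Sox9 together with its partners Sox5 and Sox6, and they secrete aggrecan bound to hyaluronan by link protein, with matrilins joining it to collagen fibrils. Osteoblasts depend on Runx2 and Sp7, while Dlx and Msx homeobox genes pattern the arches and also act in fin folds, ear placode and skin. Jaw cartilage is a known target of TCDD in zebrafish, and of the loss of sox9b.

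Libraries held between 17275522 and 20100736 counts. The first principal component of log2 CPM (counts scaled to a common library total) held 29.8% of the variance and followed neither line nor treatment. The 4 libraries scoring highest on it were WT control 4 (56.2), slincRosu3 control 4 (53.4), WT TCDD 4 (35.5) and WT TCDD 3 (32.7). They are called the libraries that stood apart, and some results, not all, are also given from the other 12 libraries. Among those 12, the WT TCDD group is held by WT TCDD 1 and WT TCDD 2 alone. On the low side, slincRosu3 control 2 (-40.0) and WT TCDD 2 (-35.3) were kept among the 12. The 12 marker lists of other cell types were present in every library. Of their genes, ttr and vtg2 were the ones at 0 counts in at least 1 library. The gene slincR itself was not analysed here, so the line labels were not checked by it, while cyp1a, a standard target of the aryl hydrocarbon receptor, ran from 856 to 1931 CPM in the TCDD libraries and from 2.75 to 5.32 CPM in the controls. The gene sox9b stood at 140 ± 21.7 CPM in WT control, 89.6 ± 33.8 in WT TCDD, 108 ± 15.5 in slincRosu3 control and 79.3 ± 16.4 in slincRosu3 TCDD (SD, n = 4 each), and its log2 change with TCDD over both lines of -0.55 had an adjusted p of 0.153 by edgeR's quasi-likelihood test. The WT TCDD libraries held 67.1, 57.8, 131 and 102 CPM of sox9b, with the higher values in WT TCDD 3 and WT TCDD 4, which stood apart. No fit of sox9b to the 12 libraries is given. The paralog sox9a had group means from 40.4 to 44.8 CPM.

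With TCDD, the clearest movers were the homeobox genes msx2b and dlx3b, both higher. In slincRosu3 embryos msx2b rose 1.69-fold and dlx3b 1.53-fold, and over both lines together they rose 1.58-fold and 1.37-fold. The other 34 tested members did not pass the threshold of adjusted p under 0.05 in any TCDD comparison of the 16 libraries. Among those 34 were the 12 tested matrix genes, sox5 and sox6, runx3, sp7 and the Indian hedgehog genes. In a bulk sample, fewer cells of a type and less RNA per cell cannot be told apart.

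The gene msx2b (ENSDARG00000101023) encodes a transcription factor of the Msx family, active in fin folds and arch mesenchyme and, in the mouse, in skull bone growth. In WT control it stood at 14.2, 12.8, 13.1 and 16.9 CPM, and in WT TCDD at 19.6, 19.8, 25.3 and 19.4 CPM. In slincRosu3 control it stood at 11.2, 11, 12.7 and 15.4 CPM, and in slincRosu3 TCDD at 24.1, 19.4, 20.4 and 21.0 CPM. All 8 TCDD libraries were above all 8 control libraries. The group means were 14.2 ± 1.89, 21.0 ± 2.85, 12.6 ± 2.03 and 21.2 ± 2.04 CPM in the same order (SD, n = 4 each). By edgeR's quasi-likelihood test, adjusted over all 20907 genes by the method of Benjamini and Hochberg, the log2 change in slincRosu3 was 0.76 (SE 0.132, adjusted p = 0.0114). In WT it was 0.56 (SE 0.132, adjusted p = 0.112). The difference between the lines was 0.19 (SE 0.186, adjusted p = 0.996), so an effect confined to slincRosu3 was not shown. Averaged over the lines, the change was 0.66 (SE 0.0934, adjusted p = 0.000675).

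The gene dlx3b (ENSDARG00000014626) encodes a Dlx homeobox factor known in zebrafish for its role in the ear placode. Its level was 39.3, 36, 37.9 and 43.9 CPM in WT control and 39.9, 44.1, 59.5 and 48.3 CPM in WT TCDD. It was 32.3, 32.2, 36.6 and 41.1 CPM in slincRosu3 control and 60.6, 49.3, 53.6 and 54.7 CPM in slincRosu3 TCDD. The slincRosu3 groups did not overlap, while in WT the lowest TCDD library lay within the control range. The higher WT TCDD values, 59.5 and 48.3 CPM, were in WT TCDD 3 and WT TCDD 4, which stood apart. The log2 change was 0.62 in slincRosu3 (SE 0.119, adjusted p = 0.0244) and 0.29 in WT (SE 0.119, adjusted p = 0.543) by edgeR's quasi-likelihood test. Averaged over the lines it was 0.45 (SE 0.0843, adjusted p = 0.011), and the difference between the lines was 0.33 (SE 0.168, adjusted p = 0.996). In the assembly GRCz12tu dlx3b lies between dlx4b and itga3b. Those neighbours had log2 changes in slincRosu3 of 0.02 and -0.17, both at adjusted p = 0.999.

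**Figure D1:**
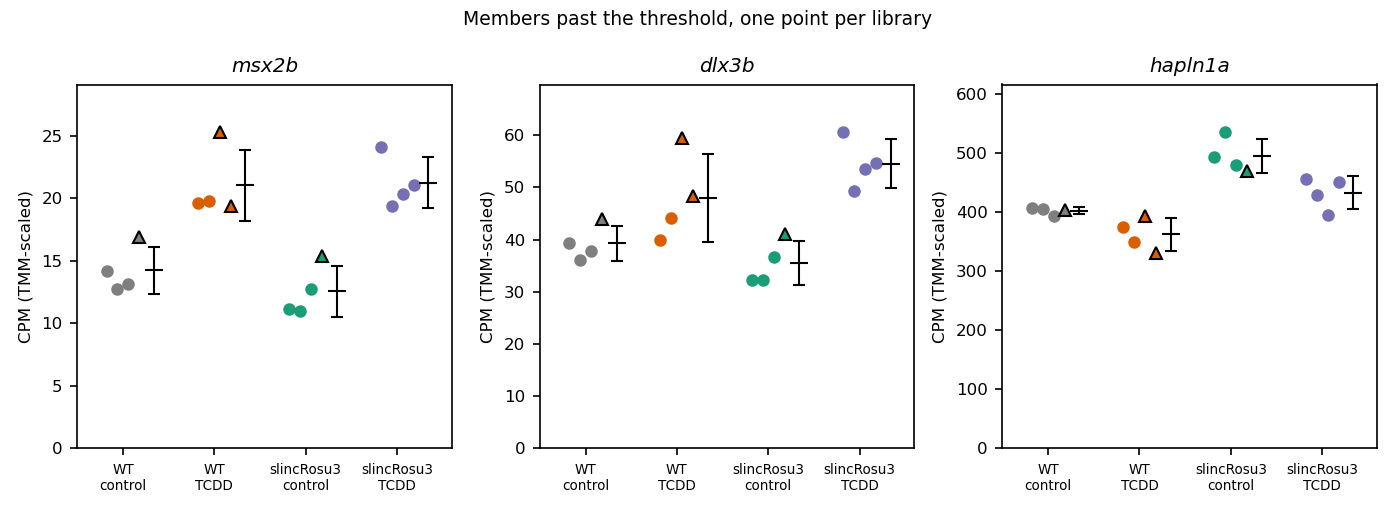
TMM-scaled CPM (vertical axes, linear from 0) of msx2b, dlx3b and hapln1a in the 16 libraries of the 4 groups. Each symbol is 1 library, black-edged triangles are the 4 libraries high on the first principal component, and the bar beside each group is its mean with SD (n = 4). The 8 TCDD libraries lie above the 8 control libraries for msx2b. For hapln1a, slincRosu3 control lies above WT control. With TCDD the highest WT library lies just under the lowest slincRosu3 library, both near 395 CPM.

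Of 36 members, 2 passed in slincRosu3 with TCDD (5.56%), against 0.383% of all genes tested. The members were chosen with earlier results of these data known. Shares of members beside all genes, here and below, are therefore a description and no test of the group. None passed in WT, where 0.325% of all genes did. Averaged over the lines, 2 passed, against 0.804% of all genes. At an unadjusted p under 0.05 there were 4 members in WT (11.1%, against 8.02% of all genes) and 8 in slincRosu3 (22.2%, against 4.86%). The median log2 change of the members was 0.12 in WT and -0.04 in slincRosu3, beside 0.01 and -0.01 over all genes tested. By DESeq2's Wald test msx2b also passed in WT, where 0.709% of genes did, and msx2b and dlx3b again passed in slincRosu3, where 0.757% of genes did.

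The calls depended on which libraries were fitted. Without the 4 libraries that stood apart, edgeR's quasi-likelihood test called msx2b in WT as well (log2 change 0.57, adjusted p = 0.0237), against 1.53% of all genes, and both genes in slincRosu3, against 0.796%. Averaged over the lines, the cartilage matrix gene matn4 joined them there, against 2.27% of all genes. In WT, dlx3b was not among the members at an unadjusted p under 0.05 in that fit. For the difference of TCDD effects between the lines it was among 11 such members (30.6%, against 16.8% of all genes). That fit kept only WT TCDD 1 and WT TCDD 2 of their group, and the libraries left out were picked by their scores in these same data. One of them, WT TCDD 3, held the lowest matn4 value of its group (520 CPM, others 607 to 615). Both slincRosu3 calls were lost on leaving out slincRosu3 control 1, slincRosu3 control 2 or slincRosu3 TCDD 1. In those fits msx2b reached an adjusted p of up to 0.0643 and dlx3b of up to 0.13. The dlx3b call alone was also lost without slincRosu3 control 3, slincRosu3 TCDD 3 or slincRosu3 TCDD 4. Leaving out any 1 library ended neither call averaged over the lines. The dlx3b change in WT, which did not pass, ran from 0.17 without WT TCDD 3 to 0.37 without WT TCDD 1. The msx2b difference between the lines ran from 0.11 without WT control 4 to 0.30 without slincRosu3 control 4, and passed in none of these fits.

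Both genes are also active in fin fold and ear. Of the fin fold and apical epidermis list, 15 of 16 genes were in the table, and their summed level ran from 22469 to 34239 CPM in WT control, 22089 to 27550 in WT TCDD, 18846 to 27543 in slincRosu3 control and 21550 to 24871 in slincRosu3 TCDD. The 13 genes of the otic vesicle list summed to 168 to 188, 163 to 189, 170 to 202 and 175 to 191 CPM in the same order. In both lists the control and TCDD ranges overlapped within each line, and no gene of either list passed with TCDD averaged over the lines. Such sums follow the most abundant genes of a list. The fin fold gene and3, for example, had group means from 198 to 264 CPM and weighs little in its sum. The 10 perichondrium and connective tissue markers summed to 2843 to 3128, 2976 to 3182, 2986 to 3407 and 3249 to 3532 CPM, again with overlap in each line. Of them, prrx1a was higher with TCDD in slincRosu3 and averaged over the lines, where 0.383% and 0.804% of all genes passed. None of the 10 passed in WT. The same gene is counted again among the skeletal lists below. The part of these tissues in the rise of msx2b and dlx3b was not tested.

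Among the cartilage matrix genes, matn4 (ENSDARG00000015947), which encodes a matrilin that links matrix fibrils, had the highest mean CPM. It stood at 479, 473, 518 and 582 CPM in WT control and 607, 615, 520 and 615 CPM in WT TCDD. In slincRosu3 it stood at 546, 479, 561 and 552 CPM without TCDD and 600, 574, 638 and 587 CPM with it. The slincRosu3 groups did not overlap and the WT groups did. Its change averaged over the lines was 0.18 on the log2 scale (SE 0.0661, adjusted p = 0.399, edgeR's quasi-likelihood test).

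The gene ucmaa (ENSDARG00000027799), which encodes a Gla-rich protein secreted by chondrocytes, had the largest fitted change in WT among the members. It rests on 3 to 20 counts per library. Its level was 0.337, 0.157, 0.26 and 0.56 CPM in WT control against 1.08, 0.724, 0.483 and 0.945 CPM in WT TCDD, ranges that overlap. In slincRosu3 it was 0.638, 0.208, 0.316 and 0.521 CPM without TCDD and 0.358, 0.661, 1.03 and 0.332 CPM with it. The log2 change in WT was 1.31 (SE 0.455, adjusted p = 0.453, edgeR's quasi-likelihood test). In WT the other matrix genes had smaller fitted changes. In slincRosu3, matn1 (-0.90), acana (-0.88) and acanb (-0.56) had larger fitted changes in size than ucmaa (0.51), and none passed. The matrilin genes matn3a and matn3b, the small proteoglycan gene epyc, cnmd (chondromodulin, an inhibitor of vessel growth), ucmab and snorc (a chondrocyte membrane proteoglycan) all had log2 changes between -0.16 and 0.14 with TCDD in either line.

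Among the members, the transcription factors of cartilage and bone other than msx2b and dlx3b showed no call with TCDD. In slincRosu3, msx1b (ENSDARG00000008886), a close relative of msx2b, stood at 19.1, 21.2, 21.2 and 25.1 CPM without TCDD and 28.6, 26.1, 26.7 and 29.0 CPM with it. Those groups did not overlap, and the log2 change was 0.35 (SE 0.118, adjusted p = 0.533, edgeR's quasi-likelihood test). In WT the msx1b groups overlapped, with 25.9, 22.2, 19.3 and 27.4 CPM in control and 23.5, 22.9, 29.2 and 24.8 CPM with TCDD. Among the chondrocyte factors, barx1 and nkx3.2, which in zebrafish set the position of the jaw joint, had log2 changes with TCDD of -0.08 and 0.23 in WT and -0.06 and 0.10 in slincRosu3. For the osteoblast factor sp7 the log2 change was -0.03 in WT against -0.25 in slincRosu3, and runx2b had 1 to 21 counts per library. The ventral arch genes dlx5a and dlx6a had values of -0.04 and -0.02 in WT and 0.21 and -0.04 in slincRosu3, and dlx4a had 0.25 in both lines.

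Of the bone genes, sparc (ENSDARG00000019353, osteonectin, a collagen-binding protein) stood at 954, 857, 899 and 1197 CPM in WT control and 914, 886, 980 and 1039 CPM in WT TCDD. In slincRosu3 it stood at 903, 817, 900 and 1087 CPM without TCDD and 980, 894, 924 and 930 CPM with it. The ranges overlapped in both lines, and the change over both lines was -0.01 on the log2 scale (SE 0.0804, adjusted p = 0.994, edgeR's quasi-likelihood test). The signal gene ihha (ENSDARG00000058733, Indian hedgehog, which controls the pace of chondrocyte maturation) stood at 2.58, 3.4, 3.49 and 2.43 CPM in WT control and 4.28, 3.83, 2.79 and 2.78 CPM in WT TCDD. The slincRosu3 libraries held 3.83, 2.5, 3.1 and 3.12 CPM without TCDD and 3.4, 3.14, 3.58 and 3.6 CPM with it. The ranges overlapped in both lines, and its change over both lines was 0.16 (SE 0.133, adjusted p = 0.894). The linker enzyme gene fam20b (ENSDARG00000008573), a xylose kinase needed to build proteoglycan chains, stood at 22.8, 22.7, 22.4 and 23.5 CPM in WT control and 23.3, 22.4, 21.3 and 25.5 CPM in WT TCDD. The slincRosu3 values were 21.5, 20.7, 20.5 and 25.2 CPM without TCDD and 14.9, 19.01, 23.95 and 19.3 CPM with it. These ranges also overlapped in both lines, with the lowest value in slincRosu3 TCDD 1. Its change over both lines was -0.08 (SE 0.0838, adjusted p = 0.926). For phex, an endopeptidase gene tied to phosphate balance, the log2 change was -0.09 in WT and 0.12 in slincRosu3. Low counts limited the rest, with 10 to 33 counts per library for ihhb, 14 to 27 for pthlha (the PTHrP gene) and 8 to 50 for xylt1 (the enzyme that adds the first sugar of a proteoglycan chain).

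**Figure D2:**
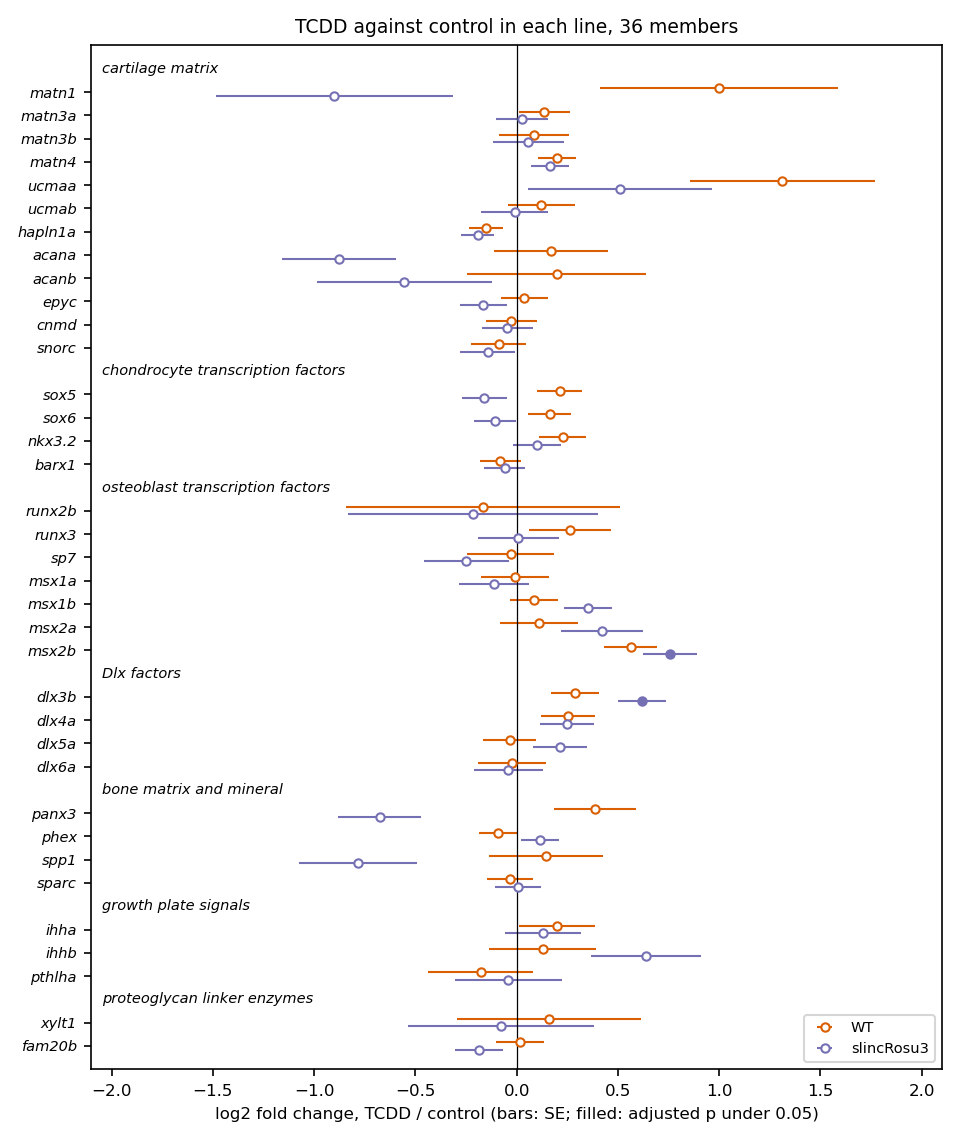
Log2 fold change with TCDD (horizontal axis) of the 36 tested members in WT and in slincRosu3, grouped by role, with SE bars. Filled points passed adjusted p under 0.05 and are msx2b and dlx3b in slincRosu3. Both genes lie to the right of 0 in both lines, while matn1, acana, panx3 and spp1 lie on opposite sides of 0 in the lines.

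Between the lines, hapln1a was the member that stood apart. This gene (ENSDARG00000089769) encodes the link protein that fixes aggrecan and versican to hyaluronan, and over both treatments it was 1.21-fold higher in slincRosu3 than in WT. It stood at 407, 406, 394 and 404 CPM in WT control and 493, 536, 481 and 470 CPM in slincRosu3 control. With TCDD it stood at 375, 351, 395 and 331 CPM in WT and 457, 430, 395 and 451 CPM in slincRosu3. The control groups did not overlap, and with TCDD the highest WT library lay just under the lowest slincRosu3 library. The line difference averaged over treatments was 0.28 on the log2 scale (SE 0.0588, adjusted p = 0.00847, edgeR's quasi-likelihood test). At each treatment alone it was 0.30 (SE 0.0832, adjusted p = 0.0964) without TCDD and 0.26 (SE 0.0832, adjusted p = 0.143) with TCDD. Its change with TCDD, averaged over the lines, was -0.17 (SE 0.0588, adjusted p = 0.338). The genes on either side of it in GRCz12tu, vcana (versican, which link protein binds) and edil3a, had line differences of -0.09 and 0.10 (adjusted p = 0.724 and 0.679).

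No member passed between the lines without TCDD, against 1.54% of all genes, or with TCDD, against 1.86%. Averaged over treatments 1 of 36 passed (2.78%), against 5.45% of all genes. At an unadjusted p under 0.05 there were 6 members without TCDD (16.7%, against 11% of all genes), 4 with TCDD (11.1%, against 14.3%) and 6 averaged over treatments (16.7%, against 19.0%). DESeq2's Wald test called hapln1a at each treatment, with adjusted p = 0.00947 and 0.0266, where 2.05% and 2.9% of all genes passed. Without the 4 libraries that stood apart, edgeR's quasi-likelihood test called hapln1a and runx3 without TCDD, against 2.83% of all genes, and hapln1a and msx2a averaged over treatments, against 6.38%. The median log2 line difference of the members was 0.05 without TCDD and -0.05 with it, beside -0.01 over all genes at each treatment.

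Besides hapln1a, the genes msx2a, msx1a, runx3 and panx3 were among the 3 members with the smallest p in a line comparison, without passing. The gene msx2a (ENSDARG00000104651), the paralog of msx2b, stood at 3.03, 2.51, 2.18 and 1.74 CPM in WT control and 1.65, 1.77, 1.37 and 1.5 CPM in slincRosu3 control. With TCDD it stood at 2.71, 2.53, 3.06 and 1.94 CPM in WT and 1.97, 2.37, 2.17 and 1.94 CPM in slincRosu3. The lowest WT library overlapped slincRosu3 at each treatment, and the line difference was -0.59 without TCDD (SE 0.2, adjusted p = 0.21) and -0.43 averaged over treatments (SE 0.14, adjusted p = 0.0838) by edgeR's quasi-likelihood test. The gene msx1a (ENSDARG00000116118) stood at 4.94, 3.56, 5.25 and 5.35 CPM in WT control and 3.62, 3.80, 3.37 and 4.34 CPM in slincRosu3 control. With TCDD it stood at 4.60, 3.46, 5.53 and 5.35 CPM in WT and 3.34, 3.31, 3.58 and 3.77 CPM in slincRosu3. In each WT group 3 of 4 libraries were above all slincRosu3 libraries of the same treatment, and the line difference averaged over treatments was -0.39 (SE 0.121, adjusted p = 0.0751).

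The gene runx3 (ENSDARG00000052826), a Runt factor of chondrocyte maturation, had the opposite sign. It stood at 4.32, 6.80, 7.07 and 8.03 CPM in WT control and 9.36, 10.5, 9.95 and 7.81 CPM in slincRosu3 control. With TCDD it stood at 8.28, 11.2, 6.39 and 5.56 CPM in WT and 10.1, 9.20, 8.51 and 10.02 CPM in slincRosu3. Ranges overlapped at both treatments, and the line difference was 0.52 without TCDD (SE 0.203, adjusted p = 0.304, edgeR's quasi-likelihood test) and 0.27 with it (SE 0.201, adjusted p = 0.596). Macrophage markers were also compared between the lines. Of 8 tested leukocyte markers, mpeg1.1, marco and spi1b were higher and lyz lower in slincRosu3 averaged over treatments, where 5.45% of all genes passed. The summed level of the list was 56.5 to 61.1 CPM in WT control and 64.8 to 72.0 in slincRosu3 control. With TCDD it was 48.2 to 59.8 CPM in WT and 58.9 to 64.0 in slincRosu3, ranges that overlapped. The part of these cells in the runx3 values was not tested.

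**Figure D3:**
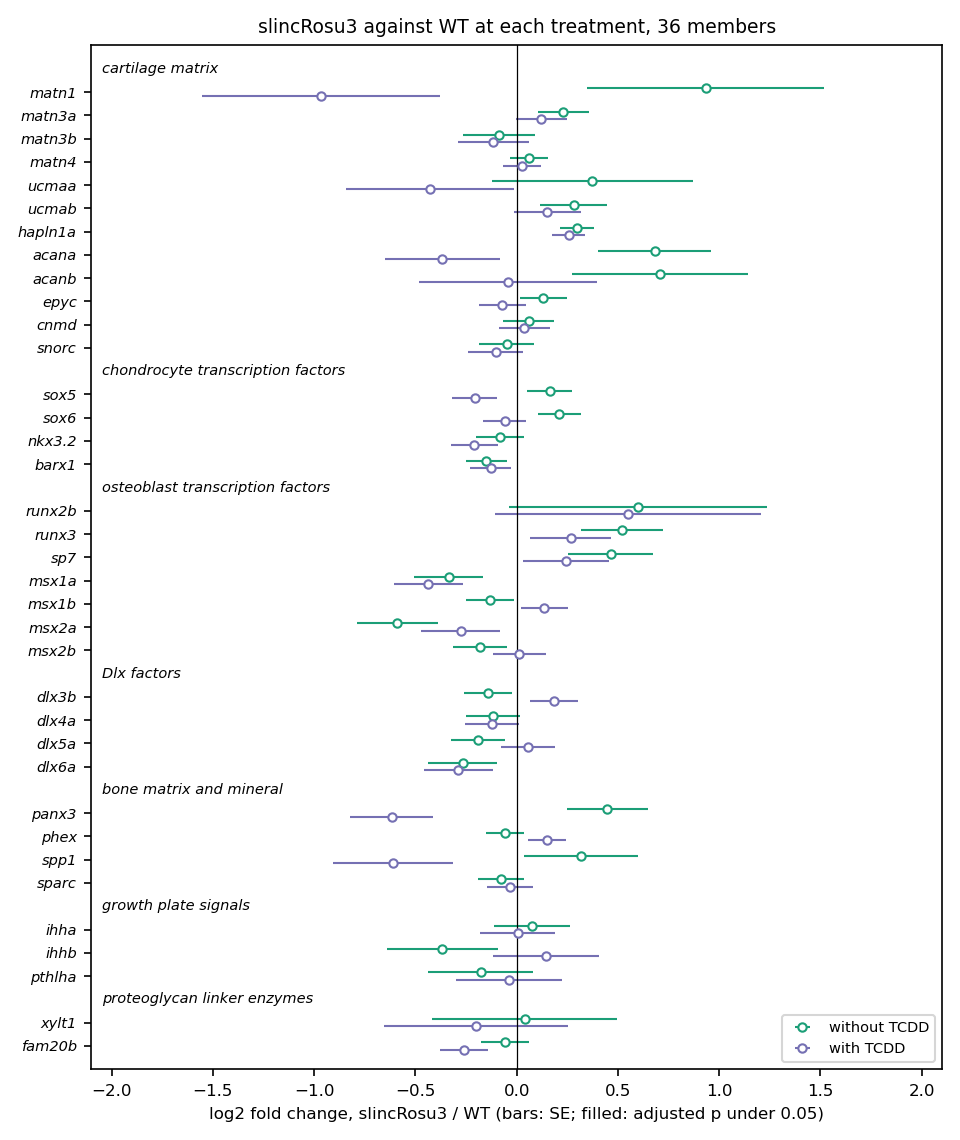
Log2 difference between slincRosu3 and WT (horizontal axis) of the 36 tested members without and with TCDD, grouped by role, with SE bars. No point is filled, since no member passed adjusted p under 0.05 at either treatment alone. The point for hapln1a lies at 0.30 without and 0.26 with TCDD, and matn1 has the widest bars among the matrix genes.

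Whether the TCDD effect differed between the lines was tested directly. Over the 16 libraries no member passed edgeR's quasi-likelihood test of that difference, and neither did any gene tested (0% called). DESeq2's Wald test called no member either. At an unadjusted p under 0.05 there were 5 members, acana, matn1, panx3, sox5 and spp1 (13.9%, against 4.3% of all genes), and 4 members by DESeq2 (10.3%, against 3.66% of all genes). In all 5 the fitted change was above 0 in WT and under 0 in slincRosu3. Without the 4 libraries that stood apart, 0.0936% of all genes passed edgeR's test of the difference, and again no member did. In that fit 11 members had an unadjusted p under 0.05 (30.6%, against 16.8% of all genes).

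The gene panx3 (ENSDARG00000004627) encodes a channel protein found in mouse chondrocytes and osteoblasts. It stood at 2.02, 2.56, 3.33 and 3.17 CPM in WT control and 3.57, 3.46, 2.85 and 4.62 CPM in WT TCDD. In slincRosu3 it stood at 5.05, 3.13, 3.47 and 3.47 CPM without TCDD and 2.09, 2.37, 2.44 and 2.55 CPM with it. The slincRosu3 groups did not overlap and the WT groups did. The log2 change with TCDD was 0.39 in WT (SE 0.202, adjusted p = 0.667) and -0.68 in slincRosu3 (SE 0.204, adjusted p = 0.355), and the difference was -1.06 (SE 0.287, adjusted p = 0.996) by edgeR's quasi-likelihood test. With TCDD, panx3 differed between the lines by -0.62 (SE 0.205, adjusted p = 0.151).

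Aggrecan, the proteoglycan that gives cartilage its water content, is encoded in zebrafish by acana and acanb. The gene acana (ENSDARG00000035891) stood at 8.81, 16.7, 28.2 and 15.7 CPM in WT control and 21.8, 23.7, 13.8 and 19.1 CPM in WT TCDD. In slincRosu3 it stood at 34.1, 22.6, 35.8 and 19.0 CPM without TCDD and 13.4, 13.9, 20.2 and 13.3 CPM with it. The ranges overlapped in both lines, in slincRosu3 through the TCDD library at 20.2 and the control library at 19.0 CPM. The change in slincRosu3 was -0.88 (SE 0.282, adjusted p = 0.461) and in WT 0.17 (SE 0.281, adjusted p = 0.94), with a difference of -1.05 (SE 0.398, adjusted p = 0.996, edgeR's quasi-likelihood test). The second aggrecan gene acanb had 17 to 97 counts per library and changes of 0.20 in WT and -0.56 in slincRosu3.

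The gene sox5 (ENSDARG00000011582), a Sox9 partner, stood at 70.7, 79.6, 80.9 and 64.9 CPM in WT control and 87.1, 94.5, 89.96 and 71.5 CPM in WT TCDD. In slincRosu3 it stood at 87.6, 86.3, 91.8 and 66.0 CPM without TCDD and 73.4, 76.5, 71.6 and 75.6 CPM with it. Ranges overlapped in both lines, and the difference of the changes was -0.37 (SE 0.156, adjusted p = 0.996, edgeR's quasi-likelihood test). Without the 4 libraries that stood apart the differences of panx3, acana and sox5 were -1.13, -1.37 and -0.50, with adjusted p from 0.13 to 0.194. The gene spp1 (osteopontin) had 7 to 24 counts per library.

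The member with the widest scatter among those at a mean of at least 5 CPM was matn1 (ENSDARG00000030215), which encodes matrilin 1, a protein of cartilage matrix. It was singled out after its values were seen. It stood at 4.38, 18.6, 64.9 and 23.7 CPM in WT control and 64.1, 68.9, 28.0 and 62.5 CPM in WT TCDD. In slincRosu3 it stood at 68.8, 21.4, 81.9 and 41.5 CPM without TCDD and 22.9, 12.7, 56.6 and 22.2 CPM with it. All 4 groups thus held libraries far apart, in WT TCDD through the lower value of WT TCDD 3. The highest library was 18.7 times the lowest, and 6.46 times without WT control 1. The SD within groups was 1.05 on the log2 scale, rank 36 of 13152 genes with a mean of at least 5 CPM, while the median over the 25 members at that level was 0.178, beside 0.19 over all such genes.

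The low value of matn1 in WT control 1 was present in both read files of that library, which held 45 and 33 counts. The files of WT control 3 held 670 and 578 counts, and those of WT TCDD 1 held 622 and 563. The pair of files may hold the ends of the same fragments, so their likeness is no separate measurement. With this spread, its log2 changes of 1.00 in WT (SE 0.586, adjusted p = 0.71) and -0.90 in slincRosu3 (SE 0.585, adjusted p = 0.999) did not pass edgeR's quasi-likelihood test. By correlation of group-centred log2 CPM over the 16 libraries, given as a description, the 5 genes nearest to matn1 among all genes were myl2a, tnxba, col10a1a, atp1b2b and cldn7a, in that order. The 25 nearest also held genes of neurons, such as gria3a (a glutamate receptor subunit), eno2 (neuronal enolase) and syt5b (a synaptotagmin).

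**Figure D4:**
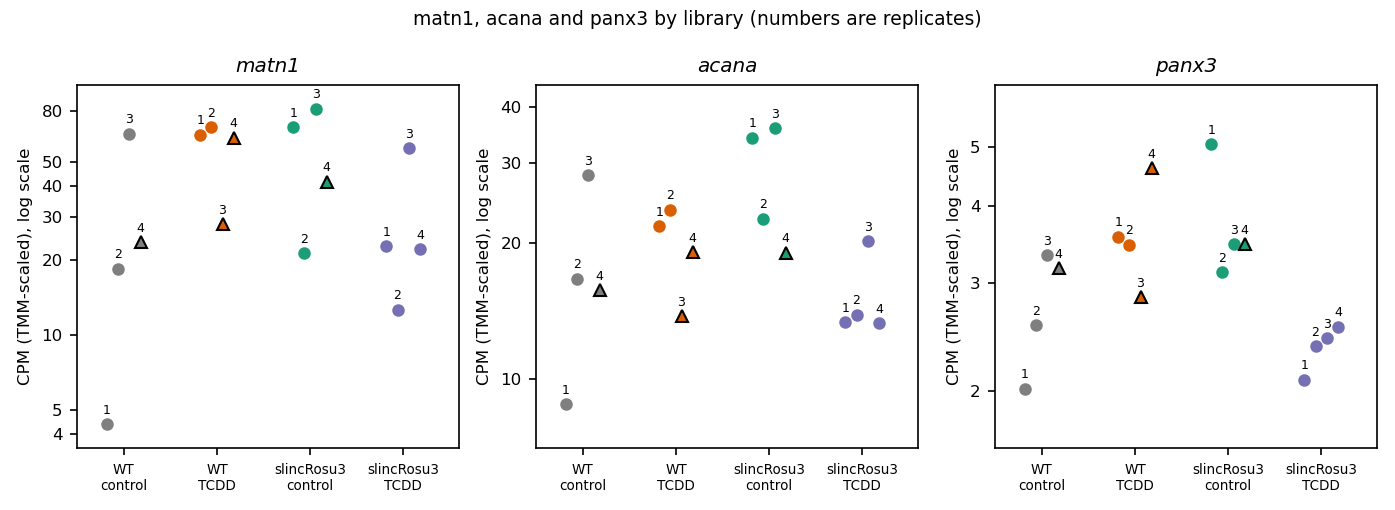
TMM-scaled CPM (vertical axes, log scale) of matn1, acana and panx3 in the 16 libraries, with the replicate number beside each point. Black-edged triangles are the 4 libraries high on the first principal component. WT control 1 is the lowest library for all 3 genes, and slincRosu3 TCDD 3 is the highest of its group for matn1 and acana.

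Some pairs of members also varied together within groups. With group means removed, Pearson's r was computed for all 630 pairs of tested members over the 16 libraries, with p from 100000 permutations within groups. By Pearson's r, 38 pairs passed at a Benjamini-Hochberg adjusted p under 0.05, 24 positive and 14 negative. In the 12 libraries other than the 4 that stood apart, all 38 kept their sign and 31 had a correlation beyond 0.5 in size. Those 12 are part of the 16 libraries in which the pairs were picked, so this is no separate test. All members share the depth and RNA of the same 16 libraries, and the part of that in these correlations was not tested. The share of such pairs among all genes tested was not computed. It is therefore not shown that members varied together more than other genes did.

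The aggrecan and matrilin genes acana and matn1 varied together, with r = 0.911 and Spearman's rho = 0.932 (permutation test, two-sided, n = 16, p = 0.000605 and 0.00059, adjusted over the pairs 0.0315 and 0.031). The relation was 0.806 without the 2 libraries farthest from the median of matn1 and 0.968 in the 12 libraries. In each pair here the farthest libraries were picked by 1 gene only, so those extreme for its partner could stay in. Among all genes, the 25 nearest to matn1 had r from 0.935 to 0.969 with it over the 16 libraries, and acana was not among them. The factor genes msx2b and dlx3b, both higher with TCDD, also varied together within groups, with r = 0.905 and rho = 0.865 (permutation test, two-sided, n = 16, p = 5.5e-05 and 0.00013, adjusted 0.0126 and 0.0205). Their r was 0.843 without the 2 farthest libraries and 0.927 in the 12 libraries. The pair of cnmd and sparc had r = 0.924 and rho = 0.9 (permutation test, two-sided, n = 16, p = 6e-05 and 8e-05, adjusted 0.0126 and 0.0168), and its r was 0.908 without the 2 farthest libraries and 0.801 in the 12 libraries.

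**Figure D5:**
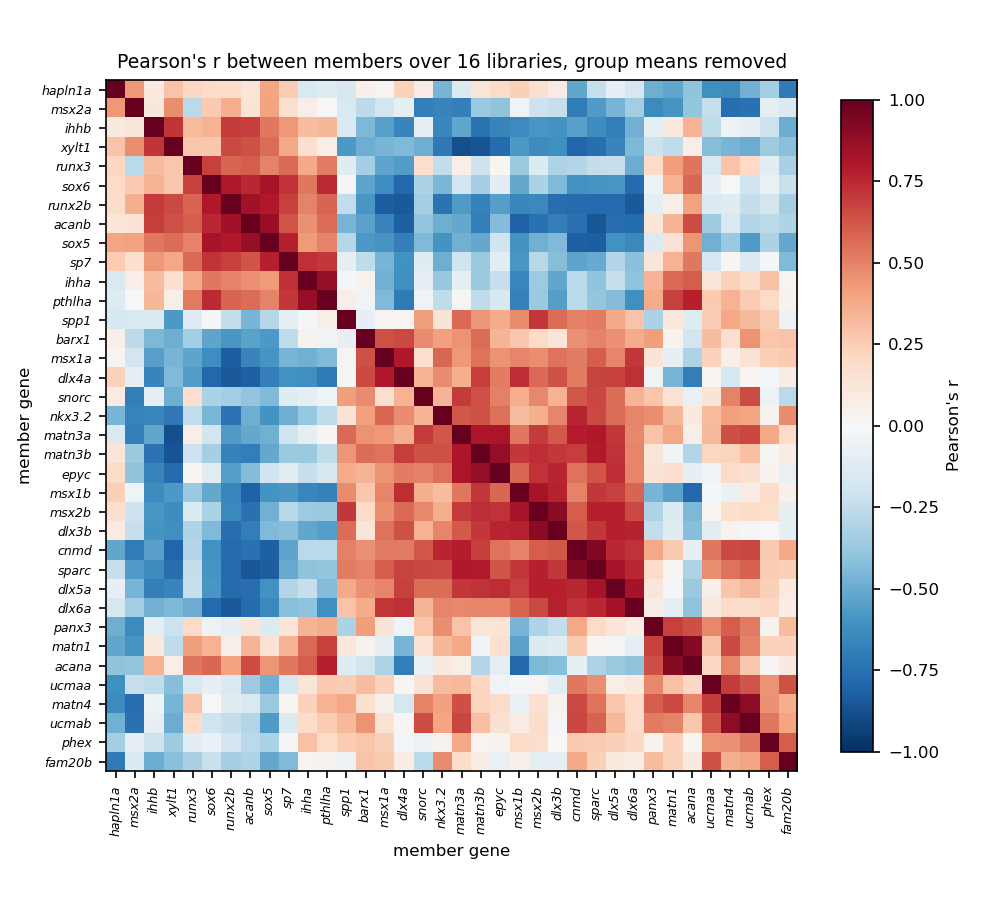
Pearson's r (colour, from -1 to 1) between the 36 tested members over 16 libraries after removal of group means, with genes on both axes ordered by likeness. The pair matn1 and acana (0.911), the pair msx2b and dlx3b (0.905) and the pair cnmd and sparc (0.924) appear as dark red cells off the diagonal.

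Other genes of skeletal development were taken from 6 lists that hold 170 genes, of which 156 were tested. These lists too were chosen with earlier results known, so their shares beside all genes are a description only. None of them passed with TCDD in WT, where list medians of the log2 change ran from -0.06 (Hedgehog and PTHrP) to 0.11 (osteoblast and mineral), beside 0.01 over all genes. In slincRosu3 the medians ran from -0.14 (glycosaminoglycan synthesis) to 0.11 (arch patterning), beside -0.01. In slincRosu3, 2 of 156 rose (1.28%, against 0.383% of all genes), prrx1a, a transcription factor of limb and head mesenchyme, and ostn, which encodes the secreted peptide osteocrin. Averaged over the lines 5 rose and none fell (3.21%, against 0.804% of all genes, of which 151 were higher and 17 lower). They were prrx1a, ostn, twist3 (a mesenchymal transcription factor), ctgfa (a secreted matrix-associated growth regulator) and cilp (cartilage intermediate layer protein).

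The mean of prrx1a went from 47.6 ± 3.77 to 67.1 ± 3.12 CPM in slincRosu3 and from 52.1 ± 1.93 to 64.7 ± 5.33 CPM in WT (SD, n = 4 each). Its log2 change was 0.49 in slincRosu3 (SE 0.0811, adjusted p = 0.0061) by edgeR's quasi-likelihood test. The mean of ostn went from 0.627 ± 0.255 to 2.21 ± 0.951 CPM in slincRosu3, a 3.54-fold rise (adjusted p = 0.022). Averaged over the lines twist3 rose 1.51-fold, ctgfa 1.53-fold and cilp 1.22-fold. These genes encode regulators and secreted proteins of mesenchyme as well as of cartilage.

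Between the lines, 5 of the 156 passed averaged over treatments (3.21%), beside 5.45% of all genes. The genes ctsk (cathepsin K, a collagen-degrading protease of bone resorption), cilp and ext1b (a heparan sulfate polymerase) were higher in slincRosu3. The genes slc26a2 (a sulfate transporter needed for proteoglycan sulfation) and chrd (a BMP antagonist) were lower, with log2 differences of -0.42 and -0.59. With TCDD alone ctsk differed, by 0.59 (SE 0.123, adjusted p = 0.0188, edgeR's quasi-likelihood test), and without TCDD none of the 156 passed. The Hedgehog and PTHrP list had no call in any of the 7 comparisons.

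Across its 4 comparisons, the authors' deposited table of DESeq2 results called 3 members, msx2b, dlx3b and hapln1a. With TCDD in WT it called msx2b (log2 change 0.56, adjusted p = 0.0142 in the authors' deposited table), where 0.673% of its genes passed. For hapln1a the authors' deposited table gave 0.29 in slincR control against WT control (adjusted p = 0.00947), where 2.05% of genes passed, and 0.26 in slincR TCDD against WT TCDD (adjusted p = 0.0271), where 2.82% passed. It also set slincR TCDD against WT control, a contrast of line and treatment together, in which 3.9% of genes passed. There the authors' deposited table called msx2b (0.58, adjusted p = 0.00227) and dlx3b (0.47, adjusted p = 0.00944). Of the 4 comparisons, 3 share the WT control libraries, and all come from the same counts, so they are no independent measurement.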

How the data were processed

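RNA of whole zebrafish embryos was sequenced as 100 base paired-end reads. The submitters' processing notes name HISAT2, STAR, DESeq2 and the build GRCz11. Not given in the sources used here were the role of each aligner, versions, the counting program, the annotation and whether strand was used. Reads of overlapping or antisense genes therefore cannot be told apart. The main table, with Ensembl genes in rows, gives raw counts deposited by the authors after adding up 2 read files for each sample and dropping genes with zero or low counts, per the table's name. Not given either is whether the 2 files are the ends of the same fragments, so counts may not be independent reads. In 1 deposited column, classed as estimated counts, a single value was not whole and was rounded. A second deposited table of raw counts gave each read file of the 8 WT libraries, and its sums equalled the main table in 8 of 8. DESeq2 log2 fold changes with adjusted p-values were deposited by the authors too, per the file headers, and were used for comparison only. Another 70 columns were not used, because their names match no label or their WT values were displaced. The 8 samples labelled BigD were not analysed here.

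Groups were taken from the sample titles. The two-sided quasi-likelihood F test of edgeR 4.0.16 (in R 4.3.3) was run after filterByExpr by group and TMM scaling. Its p-values were adjusted by Benjamini-Hochberg over the 20907 genes, with 0.05 as the threshold. The design called for the groups with columns in the main table, and 16 libraries in 4 groups were fitted together with 12 residual degrees of freedom. Levels are CPM with TMM-adjusted library sizes, given as mean ± SD over 4 libraries. They are not divided by gene length, so a higher CPM does not show that 1 gene had more transcripts than another. Ranks by mean CPM within a role served only to choose members to describe. The procedure was checked on simulated counts with 200 changed genes. Their changes were larger than those of msx2b and dlx3b, and no structure was shared between libraries. The check therefore does not cover such structure or smaller changes. Alternatives were DESeq2 1.42.0 size factors and Wald test, no filter, only the groups compared, a replicate block, each library left out, and leaving out the 4 libraries high on the first component. Correlations used log2 CPM with 0.1 added.

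The members and lists were chosen with earlier results of these data known. Values in every library were given for members past the threshold in any comparison, for the 3 members with the smallest p in each, and for the member with the highest mean CPM in each role. List genes past the threshold could be named, at most 4 per list and comparison, and sox9a and sox9b were always given. Neighbouring genes were read from a gene table of assembly GRCz12tu, and no coordinates are given.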

Additional observations from a re-analysis of the deposited data

Results flagged for a closer look

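In 12 of 144 groups of 4 libraries (36 members in 4 groups), 1 library lay far from the others by Dixon's criterion at the 95% level. Chance flags about 1 in 20 groups, and groups of different members come from the same libraries. WT control 4 was the highest of its group for matn3a (156 CPM, others 104 to 113), ucmab (57.1, others 36.2 to 39.6), cnmd (183, others 134 to 141) and dlx5a (38.6, others 31.0 to 32.2). WT TCDD 3 was the lowest for matn1 (28.0, others 62.5 to 68.9) and matn4 (520.3, others 607 to 615) and the highest for msx2b (25.3, others 19.4 to 19.8). Both libraries stood apart on the first principal component.

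In slincRosu3 TCDD, replicate 2 was the lowest for matn3a (121 CPM, others 151 to 154) and the highest for runx2b (1.1, others 0.498 to 0.597). In the same group, replicate 3 was the highest for acana (20.2, others 13.3 to 13.9) and replicate 1 the lowest for acanb (2.09, others 2.55 to 2.59). In slincRosu3 control, replicate 4 was the lowest for runx2b (0.116 CPM, others 0.99 to 1.06). The genes runx2b and acanb rest on few counts.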

How the results depend on the processing

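Counts of members past the threshold were 0 for TCDD in WT (against 0.325% of all genes) and 2 for TCDD in slincRosu3 (against 0.383%). Between the lines they were 0 without TCDD (against 1.54%) and 0 with it (against 1.86%). For the difference of TCDD effects the count was 0 (against 0%). It was 2 for TCDD averaged over the lines (against 0.804%) and 1 for the line averaged over treatments (against 5.45%). DESeq2's Wald test gave 1 for TCDD in WT (msx2b, against 0.709% of all genes). Between the lines it gave 1 without TCDD (against 2.05%) and 1 with it (against 2.9%), hapln1a each time. With the 4 libraries that stood apart left out, there was 1 for TCDD in WT, against 1.53% of all genes. Between the lines without TCDD there were 2 (hapln1a and runx3, against 2.83%). In that fit TCDD averaged over the lines gave 3 (dlx3b, matn4 and msx2b, against 2.27%). The line average gave 2 (hapln1a and msx2a, against 6.38%). With a replicate block the line average gave 2 (hapln1a and msx1a, 5.56% of members against 6.75% of all genes), and no other call changed. Replicate numbers were not taken to pair libraries, since the labels do not say that equal numbers share a clutch or batch. Correlations of same-numbered libraries ran from -0.276 to 0.676, the highest between WT control 4 and slincRosu3 control 4. Of 16 libraries, 8 correlated best with their own number, more than an even pick among the 4 numbers would give. Whether same-numbered libraries share a source was not tested. Leaving out 1 library gave 0 to 1 for TCDD in WT (1 without WT control 4, where 0.317% of all genes passed). For TCDD in slincRosu3 it gave 0 to 2, where 0.218% to 0.388% of all genes passed. For the line average it gave 1 to 3. There were 2 without WT control 2 or WT control 4 (5.56% of members, against 4.5% and 6.49% of all genes). Without WT TCDD 2 there were 3 (8.33%, against 5.69%). The other counts did not move when 1 library was left out. Among single values, 1 changed sign: the hapln1a difference of TCDD effects, -0.04, ran from -0.084 to 0.0014 as 1 library was left out, with 0.0014 without WT TCDD 3. The cause of these shifts was not tested. Counts of 0 to 21 per library limit what could be detected for runx2a, runx2b, bglap, pth1ra and ucmaa.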
